A study of Mus musculus with 20 samples.

Results

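The transcripts described here are those of the mouse mitochondrial genome, taken as every gene whose symbol starts with mt-. There are 37 such genes among the 39179 in the count tables: 13 protein-coding genes, 22 tRNA genes and 2 rRNA genes, all on chromosome M of GRCm38. RNA was sequenced from an immortalised epithelial line of C57BL/6J mouse kidney, in 20 libraries that form 4 groups of 5. The cells labelled clone1 and clone19 carry an Fh1 deletion, the cells labelled Rec have wild-type Fh1 re-expressed, and the Fh1_fl_fl cells are labelled Fh1 wt. All 4 groups grew in DMEM with 10% serum and uridine at 0.05 mg/mL. The product of Fh1 is fumarate hydratase, which turns fumarate into malate in the TCA cycle. By its name each deleted group is 1 clone, and the labels give neither the clone from which Rec was made nor the deleted part of Fh1. Nor do they say whether the 5 libraries of a group were separate cultures, so the p-values below reflect no more than the spread among these libraries, which may be technical.

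Mitochondrial DNA encodes core subunits of respiratory complexes I, III and IV and of the ATP synthase, together with the rRNAs and tRNAs that translate them inside the organelle. Both strands are transcribed as long precursors, and most mRNAs and rRNAs are released by cutting out the tRNAs that lie between them. Genes of 1 strand can therefore start from a common transcript and still reach different levels through processing and decay. Kidney tubule epithelium is rich in mitochondria.

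Only 4 of the tRNA genes had enough reads to be tested, and their sequences are shown because results below turn on them. mt-Ti set both clones apart from Fh1_fl_fl, mt-Tw set both clones and Rec apart from it, and mt-Tl1 set Rec apart from it. mt-Tp was called higher than Fh1_fl_fl in clone1, clone19 and Rec, with overlapping libraries. The sequences are written 5′ to 3′ as DNA, from the GENCODE M21 transcripts on GRCm38, with the anticodon in capitals. The leucine tRNA lies between mt-Rnr2 and mt-Nd1 (chrM:2676-2750, plus strand), the isoleucine tRNA after mt-Nd1 (chrM:3706-3774, plus strand), the tryptophan tRNA after mt-Nd2 (chrM:4950-5016, plus strand) and the proline tRNA on the other strand (chrM:15356-15422, minus strand).
mt-Tl1: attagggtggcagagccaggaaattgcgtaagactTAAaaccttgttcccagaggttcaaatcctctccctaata
mt-Ti: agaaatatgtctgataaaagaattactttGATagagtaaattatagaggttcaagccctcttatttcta
mt-Tw: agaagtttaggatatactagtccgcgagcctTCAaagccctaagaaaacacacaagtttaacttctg
mt-Tp: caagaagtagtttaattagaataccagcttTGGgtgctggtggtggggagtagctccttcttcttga

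At 2 of these genes the mRNA and the tRNA share bases, and the junctions are shown because a read across them belongs to both genes. In the plus-strand stretches below, the capitals mark the 2 bases that end the coding gene and begin the tRNA (chrM:3678-3735 and chrM:4922-4979).
mt-Nd1/mt-Ti: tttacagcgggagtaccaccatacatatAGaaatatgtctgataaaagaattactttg
mt-Nd2/mt-Tw: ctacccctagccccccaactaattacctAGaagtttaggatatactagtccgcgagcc

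A longer overlap joins the ATP synthase genes. The last 43 of the 204 bases of mt-Atp8 (chrM:7766-7969, plus strand), in capitals, are also the first bases of mt-Atp6, which leaves 161 bases that count for mt-Atp8 alone.
mt-Atp8: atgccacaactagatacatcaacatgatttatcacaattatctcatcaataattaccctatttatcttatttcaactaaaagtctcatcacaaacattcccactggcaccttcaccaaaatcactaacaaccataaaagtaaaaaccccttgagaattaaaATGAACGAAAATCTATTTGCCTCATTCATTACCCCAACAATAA

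Gene counts per library ran from 5988447 to 18972176. Levels are in CPM, counts relative to library sizes that were adjusted by TMM scaling (trimmed mean of M-values). Summed over the whole gene, Fh1 itself was at 108 to 123 CPM in clone1, 73.6 to 91.6 in clone19, 63.9 to 80.8 in Rec and 84.7 to 97.2 in Fh1_fl_fl. Its total was thus not low in the libraries labelled clone1 (log2 fold change against Fh1_fl_fl 0.29, adjusted p = 0.000598) or clone19 (-0.12, adjusted p = 0.124), and it was below Fh1_fl_fl in those labelled Rec (-0.37, adjusted p = 4.29e-05, edgeR). As the deleted part of the gene is not given, this total does not check the labels, and every direction below is by label. Of the 37 genes, 18 passed the filter on low counts (12 protein-coding, 2 rRNA and 4 tRNA genes), and the counts below are over those 18, not over all members. The other 19 were mt-Nd4l and 18 tRNA genes, none of which exceeded 42 counts in any library. A gene counted mainly in 1 group can pass through that group. One library, clone19 replicate 3, stood apart: Gm42418, a locus that collects nuclear ribosomal RNA reads, took 8.20% of its gene counts, against 0.212 to 0.463% in the other 19 libraries. Epithelial and kidney lineage markers (Cdh1, Epcam, Krt8, Krt18, Pax8 and Cdh16 among them) were counted in all 4 groups, except that Lhx1 averaged under 0.1 CPM in both clones. Markers of other cell types moved with the groups, and their part in the results was not tested. Of the 6 mesenchymal or fibroblast markers 4 had counts, with Pdgfrb and Thy1 at 0, and they summed to 535 to 626 CPM in clone1, 75.1 to 83.0 in clone19, 1.29 to 2.37 in Rec and 7.78 to 10.2 in Fh1_fl_fl. Most of this was Vim, and without it the sum was 3.36 to 5.21 CPM in clone1, 9.29 to 10.5 in clone19, 0.353 to 1.18 in Rec and 0.831 to 1.22 in Fh1_fl_fl. The 3 leukocyte markers, mainly Cd68, summed to 7.37 to 9.76 CPM in clone1, 17.2 to 19.95 in clone19, 2.13 to 4.12 in Rec and 3.73 to 4.88 in Fh1_fl_fl, with Cd3e at 0 in clone19 and Fh1_fl_fl. The 3 endothelial markers, mainly Cdh5 in the clones, summed to 1.22 to 2.71 CPM in clone1, 7.14 to 9.80 in clone19, 0.637 to 0.982 in Rec and 0.143 to 0.539 in Fh1_fl_fl. In bulk RNA, fewer cells with a transcript and less of it per cell cannot be told apart.

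The mitochondrial genes together took shares of the gene counts that overlapped between the groups, while their make-up differed. Their share was 3.64% ± 0.405 in clone1, 4.19% ± 0.549 in clone19, 3.60% ± 0.652 in Rec and 3.40% ± 0.402 in Fh1_fl_fl (SD, n = 5 each), with overlapping libraries in all groups. The mRNA of mt-Co1, the catalytic subunit of complex IV, made up 54.8 to 57.8% of the mitochondrial counts in clone1, 32.3 to 38.8% in clone19, 24.3 to 26.3% in Rec and 21.6 to 22.7% in Fh1_fl_fl. None of these 4 ranges overlapped another. Complex I mRNAs together made up 9.86 to 11.5% in clone1, 13.9 to 15.8% in clone19, 24.96 to 26.1% in Rec and 23.8 to 24.8% in Fh1_fl_fl, below Fh1_fl_fl in both clones and above it in Rec. Such shares sum to 100, so that a large share of 1 gene lowers those of the rest, whereas CPM values are relative to the whole library. In CPM, all members summed to 37410 ± 3836 in clone1, 42869 ± 6439 in clone19, 36933 ± 7043 in Rec and 31750 ± 3865 in Fh1_fl_fl (SD, n = 5 each). These means were higher than Fh1_fl_fl in clone1, clone19 and Rec, with overlapping libraries. The members without mt-Co1 summed to 16299 ± 1979 in clone1, 27288 ± 4875 in clone19, 27491 ± 5123 in Rec and 24705 ± 3100 in Fh1_fl_fl (SD, n = 5 each). All 5 clone1 sums (13454 to 18530) lay below all 5 Fh1_fl_fl sums (20420 to 28855).

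**Figure D1:**
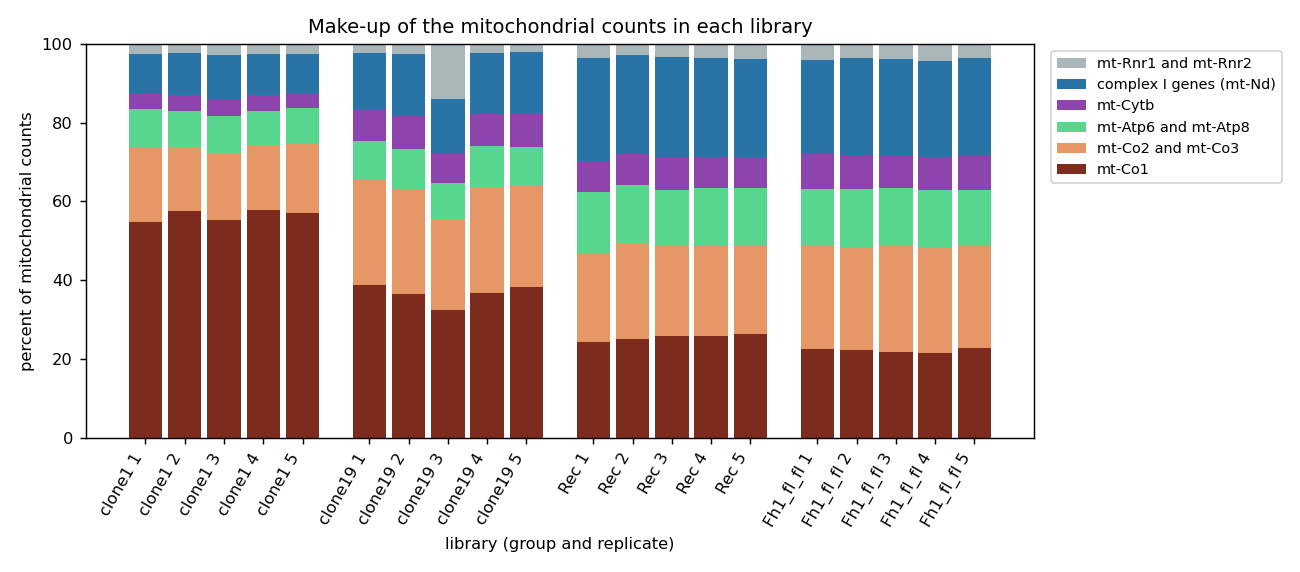
Percent of the mitochondrial counts (vertical axis) taken by each set of genes in each library (horizontal axis, group and replicate). mt-Co1 took 54.8 to 57.8% in clone1 and 21.6 to 22.7% in Fh1_fl_fl, and the rRNA share of clone19 replicate 3 (14.0%) stood above the others.

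The comparison of each clone with Fh1_fl_fl asks how cells labelled with an Fh1 deletion differ from cells without it. In clone1, 13 of the 18 tested members were called (edgeR quasi-likelihood test, Benjamini-Hochberg adjusted p under 0.05 over all 12671 tested genes), 4 higher and 9 lower. That is 72.2%, against 78.6% of all tested genes (38.0% higher and 40.5% lower), so the number of calls does not set the mitochondrial genes apart. In clone19, 12 of 18 members were called, 8 higher and 4 lower, or 66.7% against 72.9% of all tested genes (36.8% higher and 36.1% lower). The median log2 fold change of the 18 was -0.44 in clone1, beside -0.03 over all genes, and 0.46 in clone19, beside 0.00 over all genes. Without clone19 replicate 3, described below, the clone19 median was 0.02, beside 0.01 over all genes. Both comparisons use the same 5 Fh1_fl_fl libraries.

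Complex IV mRNAs did not move as a block. mt-Co1 had 22443, 22861, 21483, 20895 and 17875 CPM in clone1 (replicates 1 to 5, the order kept for all genes), 13549, 18619, 15410, 14813 and 15514 CPM in clone19, and 5976, 6735, 6929, 7972 and 7611 CPM in Fh1_fl_fl. Every library of both clones was above every Fh1_fl_fl library. By edgeR, clone1 changed by 1.58 on the log2 scale (SE 0.12, adjusted p = 2.09e-12), and clone19 by 1.15 (SE 0.12, adjusted p = 1.65e-09).

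mt-Co2, the subunit that takes electrons from cytochrome c, had 4091, 3545, 3639, 3210 and 2879 CPM in clone1, 4813, 6813, 5630, 5434 and 5389 CPM in clone19, and 2680, 3208, 3428, 4033 and 3545 CPM in Fh1_fl_fl. The clone19 libraries were all above the Fh1_fl_fl libraries, and those of clone1 overlapped them. It rose in clone19 (log2 fold change 0.73, SE 0.13, adjusted p = 1.87e-05, edgeR), while clone1 was at 0.04 (SE 0.13, adjusted p = 0.79). mt-Co3, the third mitochondrially encoded subunit of the complex, fell in clone1 to 2994 ± 397 CPM, against 5010 ± 593 in Fh1_fl_fl (SD, n = 5 each; log2 fold change -0.74, SE 0.12, adjusted p = 2.91e-06, edgeR). In clone19 it averaged 5421 ± 865 CPM and was not called (0.11, SE 0.12, adjusted p = 0.393).

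In clone1 5 of the 6 tested complex I mRNAs fell, and in clone19 4 fell and 2 rose. mt-Nd3, a small membrane subunit, had 162, 137, 140, 111 and 140 CPM in clone1, 317, 510, 315, 384 and 293 CPM in clone19, and 455, 466, 542, 570 and 498 CPM in Fh1_fl_fl. All clone1 libraries were below all others, and clone19 replicate 2 reached into the Fh1_fl_fl range. On the log2 scale the change was -1.87 in clone1 (SE 0.12, adjusted p = 1.28e-13), with -0.48 in clone19 (SE 0.12, adjusted p = 0.00077, edgeR).

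mt-Nd1, a subunit near the quinone site, had 1454, 1291, 1327, 1165 and 1034 CPM in clone1, 1260, 1950, 1544, 1471 and 1517 CPM in clone19, and 2297, 2598, 2645, 3252 and 2964 CPM in Fh1_fl_fl. Both clones were below Fh1_fl_fl in every library. By edgeR, clone1 was at a log2 fold change of -1.13 (SE 0.12, adjusted p = 3.24e-09), clone19 at -0.83 (SE 0.12, adjusted p = 8.98e-07). mt-Nd2 and mt-Nd4, proton-pumping membrane subunits, fell in both clones as well. mt-Nd2 changed by -0.81 in clone1 and -0.55 in clone19, and mt-Nd4 by -0.87 and -0.55 in the same order (log2).

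mt-Nd5, the distal proton-pumping subunit, moved in opposite directions in the clones. It had 724, 852, 979, 756 and 509 CPM in clone1, 1664, 2842, 2462, 2233 and 2293 CPM in clone19, and 1044, 1269, 1314, 1418 and 1435 CPM in Fh1_fl_fl. Neither clone overlapped Fh1_fl_fl. It fell in clone1 (log2 fold change -0.76, SE 0.14, adjusted p = 3.04e-05) but rose in clone19 (0.83, SE 0.14, adjusted p = 1.2e-05, edgeR).

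The neighbour of mt-Nd5 along the plus strand, mt-Cytb, is the only complex III subunit encoded in mitochondria. It had 1631, 1571, 1518, 1453 and 1163 CPM in clone1, 2838, 4196, 3495, 3311 and 3488 CPM in clone19, and 2411, 2625, 2663, 3128 and 2937 CPM in Fh1_fl_fl. All clone1 libraries were below Fh1_fl_fl, and clone19 overlapped it through replicate 1. In clone1 the log2 fold change was -0.91 (SE 0.12, adjusted p = 8.42e-08, edgeR). In clone19 it was 0.33 (SE 0.12, adjusted p = 0.0125, edgeR), a call that was lost without clone19 replicate 2 (adjusted p = 0.052) and with library totals in place of TMM (adjusted p = 0.108).

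Of the ATP synthase mRNAs, mt-Atp6, which forms part of the proton channel, fell in clone1 to 3287 ± 441 CPM, against 4350 ± 570 in Fh1_fl_fl (SD, n = 5 each; log2 fold change -0.40, SE 0.12, adjusted p = 0.00332, edgeR). The small subunit mt-Atp8 fell in clone1 to 165 ± 36.6 CPM, against 237 ± 17.6 (-0.53, SE 0.12, adjusted p = 0.000286, edgeR). All clone1 libraries were below Fh1_fl_fl for mt-Atp8 only. In clone19 neither was called, with log2 fold changes of -0.11 for mt-Atp6 and -0.08 for mt-Atp8.

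**Figure D2:**
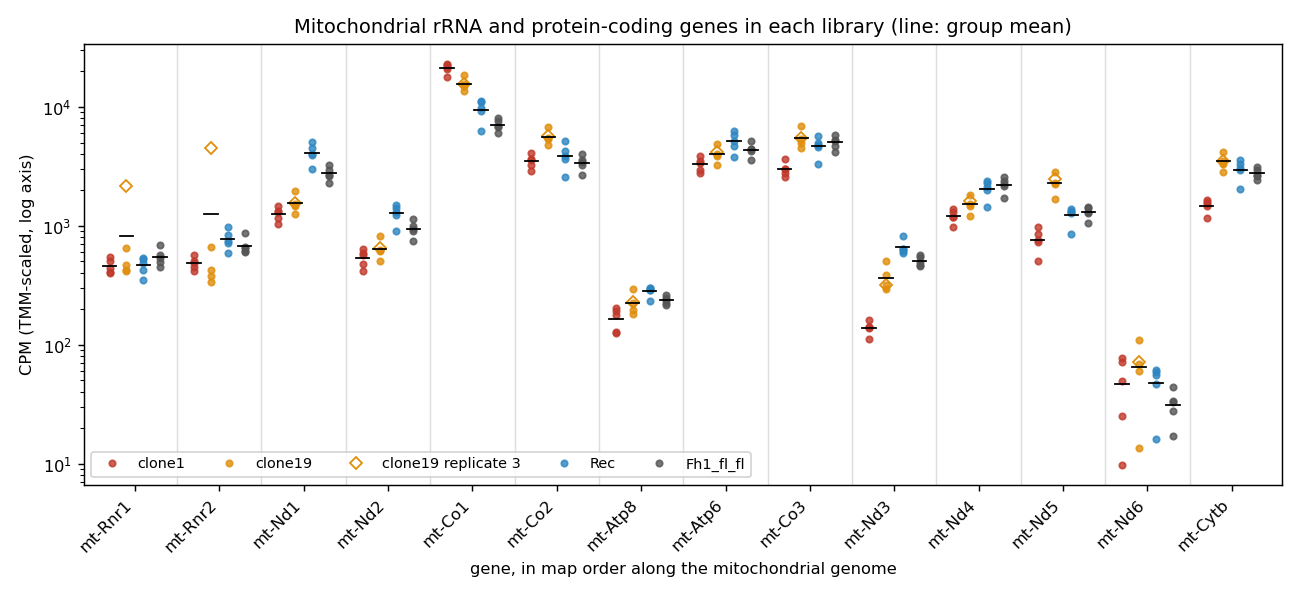
CPM on a log axis (vertical) of the tested rRNA and protein-coding genes in map order (horizontal), 1 point per library, with a line at each group mean and an open diamond for clone19 replicate 3. mt-Co1 lay between 17875 and 22861 CPM in clone1 and between 5976 and 7972 in Fh1_fl_fl, while mt-Nd3 lay between 111 and 162 CPM in clone1 and between 455 and 570 in Fh1_fl_fl.

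Per kilobase of annotated gene, the order of the mRNAs changed with the group. In clone1 mt-Co1 ranked first at 13664 ± 1274 CPM per kb, with no overlap with mt-Co2 (5077 ± 668), the next in order. The first 4 genes in clone19 were mt-Co1 (10085 ± 1210), mt-Co2 (8211 ± 1075), mt-Co3 (6914 ± 1104) and mt-Atp6 (5913 ± 866), each overlapping its neighbour. In Fh1_fl_fl mt-Co3 (6390 ± 756) and mt-Atp6 (6388 ± 837) led, followed by mt-Co2 (4940 ± 722) and mt-Co1 (4560 ± 505), again with overlap between neighbours. In Rec the first 4, which overlapped in the same way, were mt-Atp6 (7522 ± 1407), mt-Co1 (6111 ± 1255), mt-Co3 (5932 ± 1099) and mt-Co2 (5686 ± 1367). Among tested mRNAs, mt-Nd6 was lowest in all 4 groups, at 89.8 CPM per kb in clone1, 125 in clone19, 92.3 in Rec and 59.9 in Fh1_fl_fl. Each SD is over 5 libraries. The length used is that of the whole gene. Of 50-base stretches, 51.1% in mt-Co1 and 99.5% or more in mt-Co2, mt-Co3 and mt-Atp6 also occur in other transcripts. In mt-Nd1 and mt-Cytb none do, so the order between genes within a group is uncertain.

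The ratio of mt-Co1 to mt-Nd1 counts set the clones apart from each other and from Rec and Fh1_fl_fl. It was 15.4 to 17.9 in clone1, 9.55 to 10.8 in clone19, 2.12 to 2.44 in Rec and 2.45 to 2.62 in Fh1_fl_fl. A ratio within a library does not depend on library size or scaling. It shows unequal change of the pair, not which of the pair changed.

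A pair of tRNA genes that follow complex I genes rose in both clones while those coding genes fell. mt-Ti had 9.66, 7.65, 7.81, 9.16 and 5.55 CPM in clone1, 3.82, 9.33, 5.08, 5.02 and 6.86 CPM in clone19, and 0.59, 1.97, 0.73, 1.29 and 1.15 CPM in Fh1_fl_fl. These values rest on 60 to 97 reads per library in clone1, 23 to 81 in clone19 and 9 to 19 in Fh1_fl_fl, and the clones did not overlap Fh1_fl_fl. In log2 terms mt-Ti changed by 2.87 in clone1 (SE 0.27, adjusted p = 1.89e-10), by 2.51 in clone19 (SE 0.28, adjusted p = 9.34e-09, edgeR).

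mt-Tw had 9.56, 6.39, 8.36, 4.28 and 6.85 CPM in clone1, 5.47, 4.84, 4.55, 3.84 and 3.48 CPM in clone19, and 1.37, 1.14, 1.30, 0.64 and 0.86 CPM in Fh1_fl_fl. Again no library of either clone overlapped Fh1_fl_fl. mt-Tw rose in clone1 (log2 fold change 2.73, SE 0.23, adjusted p = 2.53e-11) as in clone19 (2.004, SE 0.25, adjusted p = 8.29e-08, edgeR). It was not particular to the clones, as it rose in Rec too (1.68, given below). All tRNA genes together held 136 to 241 reads per library in clone1, 68 to 209 in clone19, 104 to 367 in Rec and 61 to 106 in Fh1_fl_fl. A read counted at a tRNA gene can come from the free tRNA or from a precursor that still holds it, and which of these gave the reads was not tested.

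**Figure D3:**
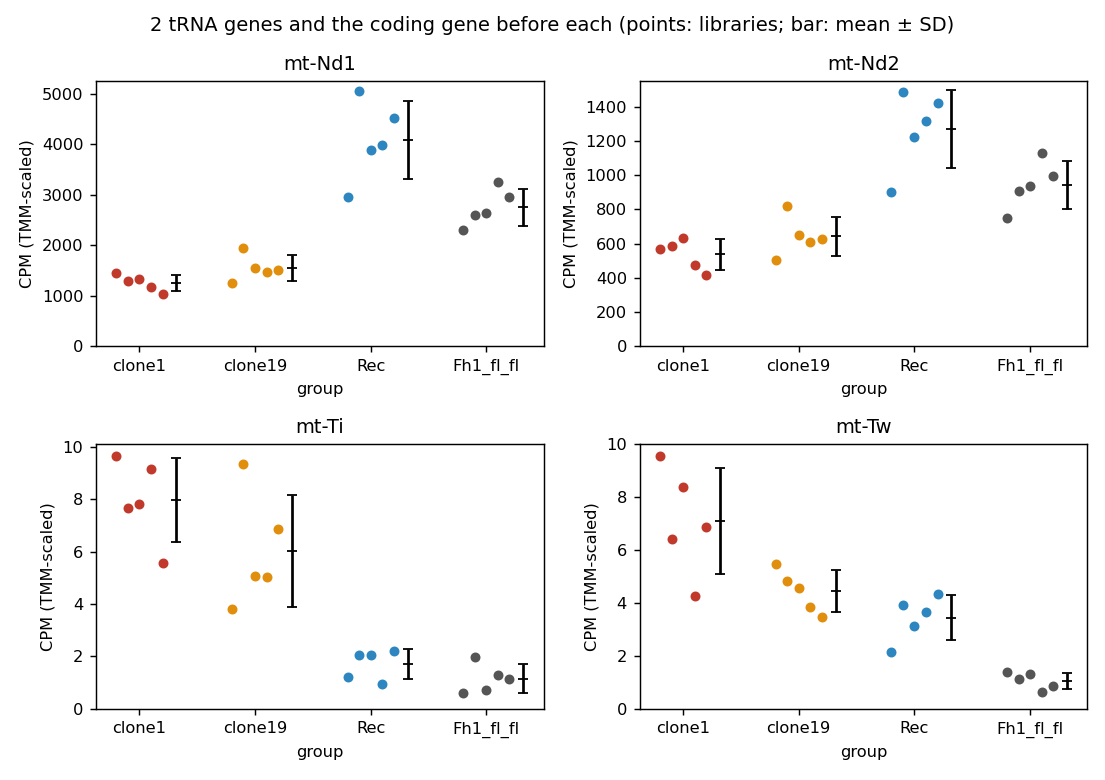
CPM (vertical) by group (horizontal) of 2 tRNA genes, mt-Ti and mt-Tw, below the coding gene that each follows, mt-Nd1 and mt-Nd2; points are libraries and the bar is the mean ± SD of 5. In both clones the tRNA genes were above Fh1_fl_fl in every library and mt-Nd1 was below it in every library. In Rec mt-Tw was also above Fh1_fl_fl in every library.

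mt-Tl1, which sits before mt-Nd1, was not called in either clone, at 1.43 ± 0.668 CPM in clone1 and 1.47 ± 0.617 in clone19, against 1.62 ± 0.529 in Fh1_fl_fl (SD, n = 5 each). The minus strand carries mt-Nd6, the only complex I subunit encoded there, and mt-Tp. mt-Nd6 had 25, 71.4, 77.0, 49.8 and 9.80 CPM in clone1, 13.4, 110, 71.8, 59.5 and 69.2 CPM in clone19, and 17.2, 27.7, 32.8, 44.0 and 33.9 CPM in Fh1_fl_fl. Libraries of a group differed several-fold, and both clones overlapped Fh1_fl_fl.

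The log2 fold change of mt-Nd6 was 0.58 in clone1 (SE 0.42, adjusted p = 0.205, edgeR), which became a call without clone1 replicate 5 (0.89, adjusted p = 0.0326). In clone19 mt-Nd6 rose by 1.08 (SE 0.41, adjusted p = 0.0212, edgeR), and this was lost without clone19 replicate 2 (adjusted p = 0.0888), without Fh1_fl_fl replicate 1 (0.0585) and with DESeq2 (0.0589). mt-Tp had 2.29, 3.78, 2.31, 2.90 and 0.87 CPM in clone1, 0.17, 5.41, 2.10, 2.85 and 3.07 CPM in clone19, and 0.74, 0.52, 1.13, 2.29 and 0.86 CPM in Fh1_fl_fl. The groups overlapped. mt-Tp rose by 1.08 in clone1 (SE 0.48, adjusted p = 0.0412, edgeR, log2), by 1.36 in clone19 (SE 0.47, adjusted p = 0.012). Its clone19 call was lost without clone19 replicate 2 (adjusted p = 0.0816). Its clone1 call was lost without any 1 of clone1 replicates 2, 3 and 4 or Fh1_fl_fl replicates 1, 2 and 5 (adjusted p 0.056 to 0.149), and with DESeq2 or library totals. The minus-strand genes mt-Nd6 and mt-Tp share little annotated sequence with others (14 bases of mt-Nd6 lie within mt-Nd5), but the strand setting of the counting is not given in the sources used here.

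**Figure D4:**
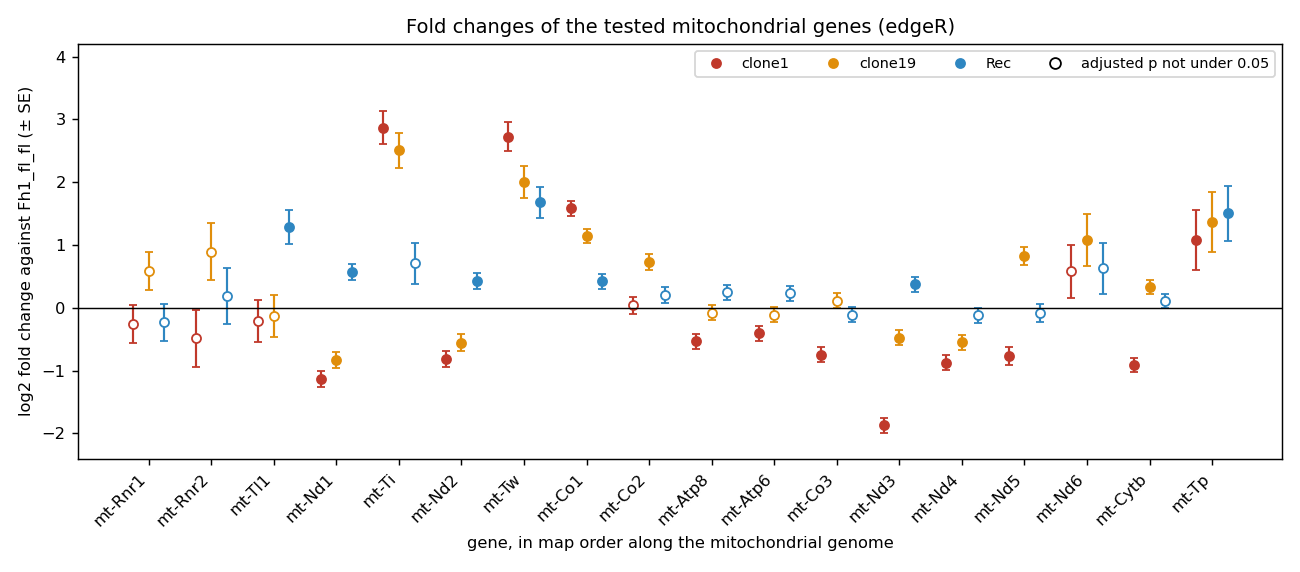
Log2 fold change against Fh1_fl_fl with its SE (vertical) for the 18 tested genes in map order (horizontal); filled points passed an adjusted p under 0.05 (edgeR). mt-Co1 was at 1.58 in clone1 and 1.15 in clone19, mt-Nd5 at -0.76 and 0.83, and mt-Ti at 2.87 and 2.51.

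The rRNAs of the small and large mitochondrial ribosomal subunits, mt-Rnr1 and mt-Rnr2, were decided by 1 library in every comparison with clone19. mt-Rnr1 had 546, 405, 506, 437 and 397 CPM in clone1, 422, 646, 2165, 465 and 416 CPM in clone19, 347, 527, 426, 490 and 539 CPM in Rec, and 452, 497, 565, 682 and 538 CPM in Fh1_fl_fl. mt-Rnr2 had 484, 449, 567, 507 and 413 CPM in clone1, 333, 663, 4499, 425 and 375 CPM in clone19, 585, 738, 717, 835 and 966 CPM in Rec, and 600, 607, 661, 862 and 651 CPM in Fh1_fl_fl. Only clone19 replicate 3 stood far from the rest. Relative to the median of the other 4 clone19 libraries, it was 4.88 times as high for mt-Rnr1 and 11.2 times for mt-Rnr2, against 0.899 to 1.11 times for the 12 tested protein-coding genes.

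Gm42418 in the same library was 35.6 times the median of the other 4. Another 3 nuclear noncoding RNAs, chosen after their values were seen, were also high there. Rmrp, the RNA of RNase MRP, was at 24.2 CPM in clone19 replicate 3, against 0.550 to 2.71 CPM in the other 19 libraries. Rpph1, the RNA of nuclear RNase P, was at 16.8 CPM there, against 0.519 to 1.86 CPM. Rn7sk, which holds back transcription elongation factor P-TEFb, was at 105 CPM, against 1.96 to 10.4 CPM. The part of RNA quality or of library preparation in these values was not tested.

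**Figure D5:**
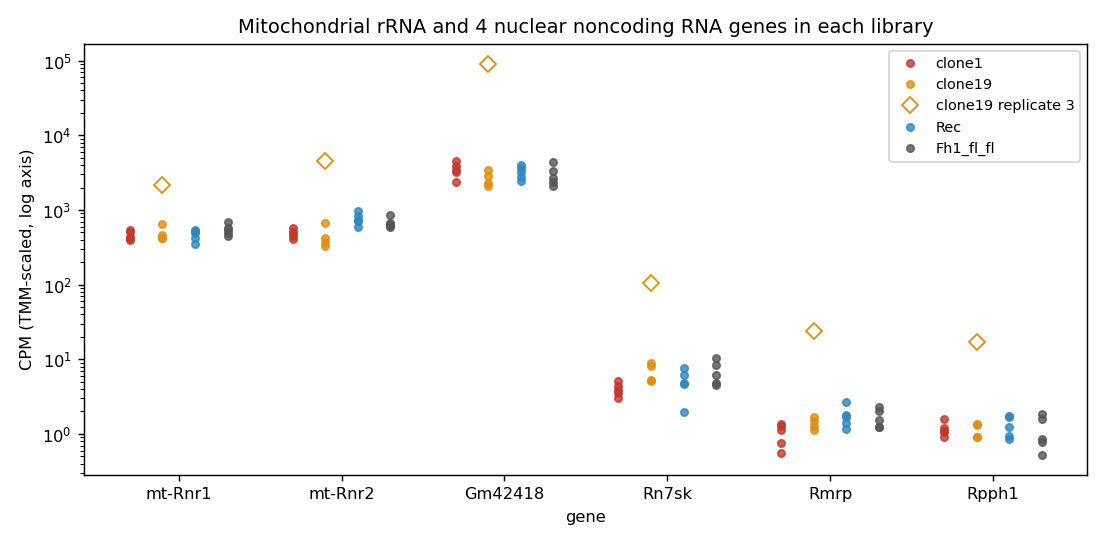
CPM on a log axis (vertical) of the mitochondrial rRNA genes, Gm42418 and 3 other nuclear noncoding RNA genes (horizontal), 1 point per library; the open diamond is clone19 replicate 3. It stood at 2165 CPM for mt-Rnr1, 4499 CPM for mt-Rnr2 and 91456 CPM for Gm42418, above every other library for all 6 genes.

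With all libraries, neither rRNA was called against Fh1_fl_fl in clone19. The log2 fold change was 0.58 for mt-Rnr1 (SE 0.30, adjusted p = 0.0778) and 0.89 for mt-Rnr2 (SE 0.45, adjusted p = 0.0779, edgeR). Both were called without clone19 replicate 1, 4 or 5 (adjusted p 0.0203 to 0.0314), and mt-Rnr2 also without replicate 2 (0.0457). Without clone19 replicate 3, mt-Rnr2 averaged 449 ± 147 CPM in clone19 (SD, n = 4) and its log2 fold change turned to -0.58 (adjusted p = 0.00148, edgeR). That of mt-Rnr1 became -0.16 (adjusted p = 0.295). In clone1, mt-Rnr2 was below Fh1_fl_fl in all 5 libraries, at 484 ± 58.3 CPM against 676 ± 107 (SD, n = 5 each). Its log2 fold change of -0.48 missed the threshold with all libraries (adjusted p = 0.33) and passed it without clone19 replicate 3 (-0.45, adjusted p = 0.00616, edgeR), as 1 estimate of the spread serves all groups. The ratio of mt-Rnr2 to mt-Rnr1 was 0.888 to 1.16 in clone1, 0.790 to 1.03 in the other 4 clone19 libraries and 2.08 in replicate 3, 1.40 to 1.79 in Rec and 1.17 to 1.33 in Fh1_fl_fl.

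Without clone19 replicate 3, 13 of 18 members were called in clone19 against Fh1_fl_fl, among them all 12 called with it. For the protein-coding genes the log2 fold changes hardly moved: mt-Co1 was at 1.16, mt-Nd1 at -0.82 and mt-Nd5 at 0.81.

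The comparison of Rec with Fh1_fl_fl asks whether cells labelled as having Fh1 put back, whose Fh1 counts were below Fh1_fl_fl, resemble cells that never lost it. Here 7 of the 18 members were called, all higher, or 38.9% against 70.8% of all tested genes (33.4% higher and 37.4% lower). Of all calls 47.2% were higher with TMM and 36.5% with library totals. The median log2 fold change of the 18 was 0.31, beside -0.03 over all genes. Without Rec replicate 1, which was the lowest Rec library for most mRNAs, 11 members were called, all higher and including these 7.

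mt-Nd1 had 2967, 5058, 3900, 3992 and 4530 CPM in Rec, against 2297, 2598, 2645, 3252 and 2964 CPM in Fh1_fl_fl. Rec replicate 1 overlapped Fh1_fl_fl and the other 4 did not. It rose by 0.57 on the log2 scale (SE 0.12, adjusted p = 0.000151, edgeR). mt-Nd2 rose by 0.43 (SE 0.13, adjusted p = 0.00458) and mt-Nd3 by 0.37 (SE 0.12, adjusted p = 0.00601), of which mt-Nd3 was lost with library totals (adjusted p = 0.0645).

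mt-Co1 had 6283, 11126, 9169, 9756 and 10876 CPM in Rec, against 5976, 6735, 6929, 7972 and 7611 CPM in Fh1_fl_fl. Apart from replicate 1, the Rec libraries were above all Fh1_fl_fl libraries. It rose by 0.42 (SE 0.12, adjusted p = 0.00207, edgeR). The remaining complex IV mRNAs were not called, mt-Co2 at 0.20 and mt-Co3 at -0.11, nor were mt-Cytb (0.11), mt-Nd4 (-0.12), mt-Nd5 (-0.08), mt-Nd6 (0.63), mt-Atp6 (0.24) and mt-Atp8 (0.25). With only the 2 groups compared, mt-Atp8 (adjusted p = 0.00149), mt-Atp6 (0.0386) and mt-Nd6 (0.0212) were called in Rec.

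Among tRNA genes 3 were higher in Rec. mt-Tl1 had 3.18, 2.95, 3.35, 3.18 and 6.02 CPM in Rec, against 0.93, 1.56, 1.95, 1.36 and 2.31 CPM in Fh1_fl_fl, without overlap. It rose by 1.29 (SE 0.27, adjusted p = 0.000113, edgeR, log2). mt-Tw had 2.15, 3.93, 3.11, 3.65 and 4.34 CPM in Rec and rose by 1.68 (SE 0.25, adjusted p = 1.12e-06, edgeR), again without overlap with Fh1_fl_fl. mt-Tp had 0.75, 3.44, 3.19, 4.12 and 4.23 CPM in Rec and rose by 1.502 (SE 0.44, adjusted p = 0.0037, edgeR), with Rec replicate 1 inside the Fh1_fl_fl range. mt-Ti had 1.22, 2.06, 2.04, 0.94 and 2.20 CPM in Rec, overlapped Fh1_fl_fl and was not called (0.71, SE 0.33, adjusted p = 0.0553), though it was with DESeq2 (adjusted p = 0.0366) and with only the 2 groups compared (0.0363).

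Set against the clones, Rec asks how the labelled re-expression changes cells with the deletion, although Fh1 counts were lower in Rec than in clone1 (log2 fold change -0.66, adjusted p = 3.49e-09) and clone19 (-0.25, adjusted p = 0.0032, edgeR). Against clone1, 13 of 18 members were called, 10 higher and 3 lower in Rec, or 72.2% against 77.9% of all tested genes (39.7% higher and 38.1% lower). Against clone19, 12 of 18 were called, 7 higher and 5 lower in Rec, or 66.7% against 73.8% (35.8% higher and 38.0% lower). The 2 comparisons share the Rec libraries, and they share the clone libraries with those given above.

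The genes higher in Rec included complex I mRNAs. mt-Nd3 averaged 656 ± 90.1 CPM in Rec, against 138 ± 17.8 in clone1 and 364 ± 88.4 in clone19 (SD, n = 5 each). In log2 terms the difference was 2.24 against clone1 (SE 0.12, adjusted p = 3.24e-15) and 0.85 against clone19 (SE 0.12, adjusted p = 3.71e-07, edgeR), and no Rec library overlapped either clone. mt-Nd1 averaged 4089 ± 780 CPM in Rec, against 1254 ± 161 in clone1 and 1548 ± 251 in clone19, with log2 fold changes of 1.71 against clone1 and 1.40 against clone19, again without overlap.

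mt-Co1 and mt-Ti were lower in Rec than in both clones. For mt-Co1 the log2 fold change was -1.16 against clone1 (SE 0.12, adjusted p = 8.7e-10) and -0.72 against clone19 (SE 0.12, adjusted p = 3.49e-06, edgeR), and every Rec library was below every library of the clones. For mt-Ti it was -2.16 against clone1 (SE 0.25, adjusted p = 1.44e-08) and -1.80 against clone19 (SE 0.26, adjusted p = 9.63e-07, edgeR), without overlap. mt-Tw was lower in Rec than in clone1 (-1.05, adjusted p = 2.58e-05) and was not called against clone19 (-0.32, adjusted p = 0.178). mt-Nd5 was higher in Rec than in clone1 (0.68, adjusted p = 0.000116) and lower than in clone19 (-0.90, adjusted p = 3.24e-06, edgeR).

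mt-Tl1 was higher in Rec than in both clones, by 1.499 against clone1 (adjusted p = 4.85e-05) and by 1.41 against clone19 (adjusted p = 0.000154, edgeR, log2). mt-Rnr1 was called lower in Rec than in clone19 (-0.82, adjusted p = 0.016), which was lost without clone19 replicate 3 (-0.06, adjusted p = 0.718). mt-Rnr2 was not called against clone19 (-0.71, adjusted p = 0.158), and without that library its log2 fold change turned to 0.78 (adjusted p = 6.43e-05, edgeR).

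Between the clones, 13 of 18 members were called, 2 higher and 11 lower in clone1 than in clone19, or 72.2% against 65.1% of all tested genes (31.6% higher and 33.5% lower). Without clone19 replicate 3 there were 8, 2 higher and 6 lower, all among the 13. Those 8 were mt-Co1, mt-Tw, mt-Co2, mt-Co3, mt-Atp8, mt-Nd3, mt-Nd5 and mt-Cytb, and the 5 lost were mt-Rnr1, mt-Rnr2, mt-Nd1, mt-Atp6 and mt-Nd4. The widest gaps were in mt-Nd5 (-1.59, SE 0.15, adjusted p = 4.02e-10), mt-Nd3 (-1.40, SE 0.12, adjusted p = 1.26e-10) and mt-Cytb (-1.24, SE 0.12, adjusted p = 6.9e-10, edgeR), leaving the rRNAs aside. In these 3 genes, and in mt-Co2 and mt-Co3, the clones did not overlap.

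For mt-Co2 the log2 difference was -0.69 (adjusted p = 5.02e-05) and for mt-Co3 -0.86 (adjusted p = 5.82e-07, edgeR). mt-Co1 (0.44, adjusted p = 0.0017) and mt-Tw (0.72, adjusted p = 0.00277) were higher in clone1, with overlapping libraries. mt-Rnr2 was called at -1.38 (adjusted p = 0.0105) and turned to 0.13 (adjusted p = 0.453) without clone19 replicate 3, and mt-Rnr1 at -0.84 (adjusted p = 0.0157) became -0.06 (adjusted p = 0.703). The calls of mt-Nd1, mt-Nd4 and mt-Atp6, at -0.30, -0.33 and -0.29, were also lost without clone1 replicate 5 (adjusted p 0.135 for mt-Nd1, 0.1 for mt-Nd4 and 0.143 for mt-Atp6) and without clone19 replicate 2 (0.126, 0.0727 and 0.122 in the same order). For mt-Nd1 and mt-Atp6 they were lost as well without clone1 replicate 4, Rec replicate 4 or 5, or Fh1_fl_fl replicate 3 or 5, and for mt-Atp6 without Fh1_fl_fl replicate 1.

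Parts of the mitochondrial genome have near-identical copies in nuclear DNA, and a read that matches both has no unique place. Of the 37 members, 10 shared at least one 50-base stretch with another annotated transcript in GENCODE M21, and 27 shared none. The share of 50-base stretches also found elsewhere was 100% for mt-Co2, 99.9% for mt-Co3, 99.5% for mt-Atp6, 98.8% for mt-Nd4l, 98.0% for mt-Nd3, 62.2% for mt-Nd4 and 51.1% for mt-Co1. It was 8.2% for mt-Nd2, 7.6% for mt-Nd5 and 1.0% for mt-Rnr2, while mt-Nd1, mt-Cytb, mt-Nd6, mt-Atp8, mt-Rnr1 and all tRNA genes had none. With 100-base stretches it was 30.8% for mt-Co1, 3.2% for mt-Nd2 and 0% for mt-Nd5 and mt-Rnr2, and 60.8% or more for the others that shared any. Among the genes without any such stretch, mt-Ti and mt-Tw are shorter than 100 bases, so that only the 50-base search covers them. Copies outside annotated transcripts were not searched, and the part of copies in the results was not tested.

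These stretches lay in 15 other genes, of which 8 were in the count tables and 7 had counts. Most of the sharing was with a block of pseudogenes on chromosome 1, among them Gm28661 (a copy of mt-Co2), Gm28437 (mt-Co3), Gm10925 (mt-Atp6) and Gm28438 (mt-Nd3). These named copies were absent from the count tables, so that no reads could be counted at them. Their absence is not a count of 0. mt-Nd4l, another complex I gene, had 0 counts in all 20 libraries. Its copy Gm10222 in that block matches it at 294 of 294 aligned bases. Unlike the copies named above, Gm10222 was in the count tables. It had 0 counts as well, and no level of mt-Nd4l can be given. Yet mt-Co2, mt-Co3, mt-Atp6 and mt-Nd3, which share 98.0 to 100% of their stretches, had counts in every library. How reads with more than 1 place were treated in the alignment is not given in the sources used here, so the levels of these 4 genes are uncertain. The same holds for the shared parts of mt-Nd4 (62.2% of stretches) and mt-Co1 (51.1%). A count of 0 allows up to 3 counts, which is 0.158 to 0.501 CPM in these libraries and covers counting error only.

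Copies with counts were followed to see whether their share moved with the groups. Gm13340, a partial copy of mt-Co1 on chromosome 2, had 0.234 to 0.461 counts per 1000 mt-Co1 counts in clone1, 0.271 to 0.390 in clone19, 0.203 to 0.415 in Rec and 0.170 to 0.416 in Fh1_fl_fl. Gm13341, a copy of mt-Co2 beside it, had 0.363 to 0.560 counts per 1000 mt-Co2 counts in clone1, 0.404 to 0.532 in clone19, 0.230 to 0.509 in Rec and 0.267 to 0.713 in Fh1_fl_fl. Both ratios overlapped in all groups. The copies that share the most stretches with mt-Co1 and mt-Co2, Gm29216 and Gm28661, were absent from the count tables. The ratios therefore do not show how far copies added to the counts of mt-Co1 or mt-Co2. Over each library, reads without a unique place were 28.8 to 34.3% of counted reads and summary lines, except for 40.3% in clone19 replicate 3.

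The tRNA genes that did not pass the filter held few reads. mt-Tf, the phenylalanine tRNA gene at the start of the map, had 0 counts in all libraries. mt-Tt, the threonine tRNA gene between mt-Cytb and mt-Tp, summed to 8 counts over the 5 clone1 libraries, 15 in clone19, 99 in Rec and 24 in Fh1_fl_fl. mt-Tm, the methionine tRNA gene before mt-Nd2, summed to 30 in clone1, 32 in clone19, 32 in Rec and 26 in Fh1_fl_fl. Of the remaining 15, none had over 11 counts in a library.

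A list of 65 nuclear genes covered the upkeep and transcription of mitochondrial DNA and the processing, stability and modification of its RNA. It included 8 nuclear regulators, among them Ppargc1a and Pprc1. Of the 65, 63 were matched and 62 tested. In clone1 29 were higher and 18 lower than in Fh1_fl_fl, or 75.8% called against 78.6% of all tested genes, with a median log2 fold change of 0.16. In clone19 23 were higher and 15 lower, or 61.3% against 72.9% (median 0.14). In Rec 36 were higher and 8 lower, or 71.0% against 70.8% (median 0.37). The medians over all tested genes were -0.03, 0.00 and -0.03 in the same order. Against clone1, 34 were higher and 16 lower in Rec (80.6% called, against 77.9% of all genes), and against clone19 32 were higher and 13 lower (72.6% against 73.8%). Between the clones 22 were higher and 18 lower in clone1 (64.5% against 65.1%). The number called in this list, counting both directions, was thus near that over all genes, except in clone19 against Fh1_fl_fl, where it was lower. By direction, a larger share of the list rose and a smaller share fell than over all genes in every comparison, by varying margins. The comparisons share groups and so are not independent of each other, and these differences in share were not tested. For Rec against Fh1_fl_fl, 58.1% of the list rose and 12.9% fell, beside 33.4% and 37.4% of all tested genes. Rec against clone1 gave 54.8% and 25.8%, beside 39.7% and 38.1%. Rises were close to those of all genes for clone19 against Fh1_fl_fl (37.1%, beside 36.8%).

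Lonp1, the matrix protease that degrades TFAM among other substrates, rose to 489 ± 11.7 CPM in clone1 and 499 ± 45.5 in clone19, against 136 ± 3.76 in Fh1_fl_fl (SD, n = 5 each; log2 fold change 1.84 in clone1 and 1.87 in clone19, edgeR), and by 0.67 in Rec. Top1mt, a mitochondrial DNA topoisomerase, rose by 1.91 in clone1, 1.88 in clone19 and 0.99 in Rec. Ppargc1a, a coactivator of mitochondrial biogenesis, averaged 76.7 ± 9.90 CPM in clone1, 46.6 ± 1.89 in clone19 and 3.05 ± 0.522 in Rec, against 21.1 ± 0.585 in Fh1_fl_fl. It rose in both clones (1.86 in clone1 and 1.14 in clone19) and fell in Rec (-2.78, SE 0.11, adjusted p = 1.33e-17, edgeR).

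Fastkd1, an RNA-binding protein that acts on mitochondrial mRNA, rose by 1.61 in clone1, 0.81 in clone19 and 0.45 in Rec. Trmt5, a tRNA methyltransferase, fell to 8.41 ± 0.569 CPM in clone1 and 16.4 ± 2.80 in clone19, against 28.3 ± 1.68 in Fh1_fl_fl, and was not called in Rec (0.07, adjusted p = 0.451). Endog, a mitochondrial nuclease, rose by 1.52 in clone1 and was not called in clone19 (0.05) or Rec (0.24). The mitochondrial exonuclease Mgme1 rose in all 3 groups, by 0.41 in clone1, 1.03 in clone19 and 1.28 in Rec. Exog, another, rose by 1.03 in clone19 and 0.70 in Rec and was not called in clone1 (0.15). Mrm1, an rRNA methyltransferase, rose by 0.99 in clone1, 0.95 in clone19 and 0.34 in Rec. Tbrg4, a FASTK family RNA-binding protein, rose by 0.97 in clone1, 0.55 in clone19 and 1.30 in Rec. The RNA methyltransferase Nsun2 rose by 0.95 in clone1, 0.66 in clone19 and 1.14 in Rec, and the coactivator Pprc1 by 0.59, 0.47 and 1.05 in the same order. Trnt1, which adds the CCA end to tRNAs, rose by 0.997 in clone1, 0.43 in clone19 and 0.99 in Rec (log2, edgeR).

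Tfam, which packages mitochondrial DNA and helps to start its transcription, averaged 71.1 ± 4.01 CPM in clone1, 50.6 ± 2.74 in clone19 and 103 ± 3.52 in Rec, against 69.0 ± 3.26 in Fh1_fl_fl (SD, n = 5 each). It fell in clone19 (-0.45, SE 0.06, adjusted p = 1.18e-07), rose in Rec (0.58, SE 0.06, adjusted p = 5.46e-10) and was not called in clone1 (0.05, adjusted p = 0.467, edgeR). Polrmt, the mitochondrial RNA polymerase, rose in clone1 (0.47, adjusted p = 0.000216) and Rec (0.67, adjusted p = 1.65e-06) and was not called in clone19 (0.23, adjusted p = 0.0615). Of Lrpprc and Slirp, whose proteins together stabilise mitochondrial mRNA, Lrpprc fell by 0.36 in clone1 and by 0.17 in clone19 and rose by 0.22 in Rec. Slirp fell by 0.75 in clone1, was not called in clone19 (0.01) and rose by 0.29 in Rec (log2, edgeR). Tfam, Polrmt, Lrpprc and Slirp were picked from the list for their roles, and the other named genes for the size of their change.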

How the data were processed

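The authors deposited counts: whole-number read counts per Ensembl gene, 1 table per library, not normalized. GRCm38 is the build in the submitters' processing notes, which also name DESeq 1.10.1, HTSeq 0.5.3p9 and TopHat2 2.0.4; the sources used here give no annotation release, strand setting or read length. The 5 summary lines of reads given to no gene (28.8 to 40.3% of a library without a unique place, 3.28 to 6.73% in no feature) stayed out of library sizes and tests. Symbols and sequences came from GENCODE M21 (37607 of 39179 genes matched). The planned search of the whole genome for copies was made against annotated transcripts only.

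Counts were fitted in R 4.3.3 with edgeR 4.0.16, using filterByExpr (12671 genes tested, 26508 left out), TMM scaling, 1 quasi-likelihood model of all 20 libraries, 6 comparisons, each adjusted by Benjamini-Hochberg, with calls at an adjusted p under 0.05. The script was tested on simulated data. Values are CPM on TMM-scaled sizes with SD over 5 libraries. No libraries were identical; chi-square over its degrees of freedom was 61.8 to 92.2 for replicate pairs with clone19 replicate 3 and 2.04 to 19.4 for the other 36. Alternatives were other scalings (RLE, library totals, without the mitochondrial genes and Gm42418), filters, DESeq2 1.42.0, only the 2 groups compared, a replicate block and leaving out each library. All members are accounted for; up to 6 machinery genes per comparison with Fh1_fl_fl were named, by largest called change. The members and lists were chosen with earlier results of these data known. Limits from counts cover counting error alone, as reads lacking molecular identifiers need not be separate molecules.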

Additional observations from a re-analysis of the deposited data

Results flagged for a closer look

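A library far from the rest of its group was looked for in 76 groups of 5 (Dixon's test at the 95% level), which chance alone would flag in about 1 in 20; 7 were found. In clone19 replicate 3, mt-Rnr1 stood at 2165 CPM and mt-Rnr2 at 4499 CPM, and the nuclear noncoding RNAs given above were high in the same library. Of the others, 3 were values of Rec replicates 1 and 2: mt-Atp8 at 234 CPM and mt-Nd5 at 846 CPM, both low, in replicate 1, and mt-Nd3 at 813 CPM, high, in replicate 2. mt-Tl1 was high in Rec replicate 5 at 6.02 CPM, and mt-Rnr2 was high in Fh1_fl_fl replicate 4 at 862 CPM.

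The change against Fh1_fl_fl differed between the clones for 13 genes, by the edgeR test of clone1 against clone19 in the same model (adjusted p under 0.05). This is the comparison of the clones given above, not a further test. Without clone19 replicate 3 only 8 were called, and mt-Rnr1, mt-Rnr2, mt-Nd1, mt-Nd4 and mt-Atp6 were lost. The log2 change in clone1 minus that in clone19 was -1.59 for mt-Nd5, -1.40 for mt-Nd3, -1.38 for mt-Rnr2, -1.24 for mt-Cytb, -0.86 for mt-Co3, -0.84 for mt-Rnr1, -0.69 for mt-Co2 and -0.45 for mt-Atp8. It was -0.33 for mt-Nd4, -0.30 for mt-Nd1 and -0.29 for mt-Atp6, and it was positive for mt-Tw (0.72) and mt-Co1 (0.44). mt-Nd5 and mt-Cytb were called in opposite directions in the 2 clones, lower in clone1 and higher in clone19.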

How the results depend on the processing

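The counts of members called in Rec against Fh1_fl_fl (7) and in clone1 against clone19 (13) moved most. The first was 11 with no filter on low counts, 11 with only the 2 groups compared, and 7 to 11 when 1 library was left out; the second was 8 to 14 when 1 library was left out. The direction of mt-Rnr2 reversed without clone19 replicate 3: -0.58 for clone19 against Fh1_fl_fl, 0.78 for Rec against clone19 and 0.13 for clone1 against clone19 (log2), with leave-one-out ranges of -0.58 to 1.14, -0.94 to 0.78 and -1.61 to 0.13 in the same order; the cause was not tested. With summary lines in the denominator the mitochondrial share was 2.33% in clone1, 2.55% in clone19, 2.27% in Rec and 2.21% in Fh1_fl_fl. With library totals in place of TMM, the median of all genes against Fh1_fl_fl shifted to -0.17 in clone1, -0.12 in clone19 and -0.17 in Rec. The share of calls that were higher then fell to 40.1% in clone1 (48.4% with TMM), 40.7% in clone19 (50.5%) and 36.5% in Rec (47.2%), and members called became 12, 11 and 6. Over all settings that left out no library, 826 of the members' log2 fold changes kept their side of the threshold, 23 passed it newly and 9 no longer did. Of the 826, 820 kept their sign; the other 6 were not called either way, among them mt-Co2 in clone1 (-0.10), mt-Co3 in clone19 (-0.01) and mt-Cytb in Rec (-0.03) against Fh1_fl_fl with library totals. Same-numbered libraries did not deviate together (correlations -0.26 to 0.22, and 2 of 20 libraries correlated best with their own number). A fit with the replicate block called 13, 12 and 8 members against Fh1_fl_fl (clone1, clone19, Rec; mt-Atp8 was added in Rec, at 0.24, adjusted p = 0.0415), 13 and 11 for Rec against clone1 and clone19, and 12 between the clones. Depth limits the untested tRNA genes, which had at most 42 counts in a library.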

Other observations

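mt-Nd6 and mt-Tp, the tested genes of the minus strand, varied within groups more than the plus-strand mRNAs, and together in places. All minus-strand genes made up 0.0343 to 0.212% of the mitochondrial counts in clone1, 0.0395 to 0.229% in clone19, 0.0665 to 0.180% in Rec and 0.0709 to 0.126% in Fh1_fl_fl. Replicate 1 was the lowest library for mt-Nd6 in clone19, Rec and Fh1_fl_fl, and replicate 5 in clone1. Replicate numbers do not mark a shared batch in the labels.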
